A study of Mus musculus with 4 samples.

Results

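The colony-stimulating factors and their receptors were followed as 8 genes among the 34097 measured in transplanted mouse hearts. The set comprised the ligands Csf1, Il34, Csf2 and Csf3 and the receptor genes Csf1r, Csf2ra, Csf2rb and Csf3r, and all 8 symbols were found in the gene lists of every library. The study compared allogeneic heart grafts, in which donor and recipient differ genetically, with isogeneic grafts, in which they match, and digested each graft into a cell suspension 5 days after transplantation. Single-cell RNA was counted as unique molecular identifiers (UMIs) in 3 allogeneic libraries (replicates 1, 2 and 3) and 1 isogeneic library (replicate 2). The series title concerns VISTA on macrophages, but the labels name no further treatment, strain, age or sort, and do not state whether the libraries came from separate animals, so every p-value measures the spread between these libraries, which may be technical. UMIs were summed per library and cell class, and classes were gated on marker genes that exclude the 8 genes. Each class name is to be read as "-like", because the gates rest on a few markers per cell.

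CSF-1 and IL-34 are the known ligands of the receptor tyrosine kinase CSF1R, which macrophages and monocytes need for survival and differentiation. GM-CSF, the product of Csf2, acts through an alpha chain encoded by Csf2ra and a signalling beta chain encoded by Csf2rb, which the interleukin-3 and interleukin-5 receptors share. G-CSF, the product of Csf3, drives neutrophil production through CSF3R. Stromal cells, endothelial cells and activated T cells are classical sources of these factors, and myeloid cells are their classical receivers.

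The promoters of Csf1, Csf2ra and Csf3r are shown because the group differences that passed the test included Csf1, and because both receptor genes were highest in neutrophils, followed by monocytes and macrophages. RefSeq entries on GRCm38.p6 matched 4 of the 8 genes, namely these and Csf2. The 250 bases before the RefSeq start are printed 5′ to 3′ on the gene's strand. Capitals mark a kappa B pattern (GGGA and CC with any 4 bases between), bound by NF-kappa B proteins, in Csf1, and GAGGAA, a core bound by the Ets factor PU.1, in Csf2ra and Csf3r.
Csf1, chr3:107760470-107760719, minus strand: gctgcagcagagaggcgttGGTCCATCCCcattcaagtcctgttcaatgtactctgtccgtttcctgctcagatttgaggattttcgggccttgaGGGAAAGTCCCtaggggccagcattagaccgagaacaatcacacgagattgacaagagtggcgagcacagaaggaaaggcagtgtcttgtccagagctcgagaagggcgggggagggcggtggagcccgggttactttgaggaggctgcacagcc
Csf2ra, chr19:61228419-61228668, minus strand: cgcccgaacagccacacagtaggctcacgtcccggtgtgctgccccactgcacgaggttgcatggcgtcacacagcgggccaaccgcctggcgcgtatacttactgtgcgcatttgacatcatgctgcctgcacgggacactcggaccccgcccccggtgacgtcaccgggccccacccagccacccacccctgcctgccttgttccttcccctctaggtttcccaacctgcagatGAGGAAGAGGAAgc
Csf3r, chr4:126024409-126024658, plus strand: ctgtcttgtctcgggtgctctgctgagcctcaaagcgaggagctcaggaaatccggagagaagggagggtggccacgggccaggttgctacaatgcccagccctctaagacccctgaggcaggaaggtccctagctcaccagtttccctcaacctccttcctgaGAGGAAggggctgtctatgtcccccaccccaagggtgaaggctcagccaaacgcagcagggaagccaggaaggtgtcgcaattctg
Both strands were searched. The Csf1 promoter held 3 kappa B matches, at 231, 155 and 154 bases before the start, and the last 2 overlap one another. A kappa B match was present in 17.6% of the 32851 promoters of this length in the table. Csf2ra held 2 GAGGAA matches, 14 and 8 bases before the start, and Csf3r held 1, at 86 bases, beside 1 kappa B match at 129 bases. GAGGAA was present in 23.3% of all promoters. By the GENCODE annotation used below, Csf3r starts at 126024550, so its GAGGAA match lies inside the annotated gene. Csf2ra starts there at 61228429 on the minus strand, so its match at 8 bases lies inside the annotated gene. The Csf2ra match at 14 bases spans that start. The AP-1 pattern TGANTCA (6.75% of promoters) and the gamma-activated sequence TTCNNNGAA (7.02%) matched none of the 4 promoters, and the Csf2 promoter held none of the 4 patterns. A match describes letters and is not a bound site.

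The places of the genes follow the GENCODE M21 annotation of GRCm38, which corresponds to the mm10 build named in the submitters' notes. All 8 are protein-coding genes. Csf1 lies at chr3:107741048-107760469, Il34 at chr8:110741829-110805924, Csf2 at chr11:54247271-54249667 and Csf2ra at chr19:61223957-61228429, all on the minus strand. Csf2rb lies at chr15:78325752-78353847, Csf3 at chr11:98701263-98703629 and Csf3r at chr4:126024550-126044440, all on the plus strand. Csf2rb2, at chr15:78282507-78305721, encodes a second, very similar beta chain and is separated from Csf2rb by 20030 bases. Reads from these near-identical neighbours could have been split between them, so their separate values are uncertain. Il34, Csf2 and Csf1r overlap genes on the other strand (Gm15894 and Gm15895, Gm12223, and Hmgxb3), and no source used here states whether counting used strand.

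The libraries held 6160 to 11473 barcodes and 51054446 to 100038951 UMIs, and 4737 to 10341 cells were kept. Any pair of libraries shared 14 to 31 barcodes. The libraries differed in composition: fibroblasts numbered 71, 143 and 2115 in the 3 allografts (in replicate order) and 4968 in the isograft, T cells 922, 1492, 366 and 32, and macrophages 1722, 2414, 469 and 2413. In its many fibroblasts and few macrophages, allogeneic replicate 3 was unlike replicates 1 and 2. Each of 7 classes had at least 20 cells in every library and was tested between the groups. Values are given as CPM, the count scaled to a common total of class UMIs, always in the order allogeneic 1, 2, 3 and then isogeneic. The test within a class was edgeR's quasi-likelihood F-test with Benjamini-Hochberg adjustment over all genes of that class, and its 2 residual degrees of freedom assume that the lone isogeneic library varies like the allogeneic ones.

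The classes holding each gene's UMIs were described first. Fibroblasts held the largest class share of Csf2 UMIs in all 4 libraries: 70.3% (95% Wilson interval 64.1 to 75.8), 61.5% (53.7 to 68.8), 70.0% (64.4 to 75.0) and 77.9% (71.1 to 83.5). T cells held 20.1% (15.4 to 25.8), 14.7% (10.0 to 21.2) and 14.5% (10.9 to 19.1) of Csf2 UMIs in the allografts and 2.33% (0.908 to 5.83) in the isograft. The fibroblast share of Csf1 UMIs was 29.8% (27.3 to 32.4) and 23.7% (21.8 to 25.8) in allogeneic replicates 1 and 2. It was larger in the libraries with many fibroblasts, at 67.5% (66.1 to 68.9) in replicate 3 and 83.8% (82.9 to 84.6) in the isograft. Per whole library, Csf1 stood at 27.0, 31.4, 95.7 and 87.6 CPM. The whole-library level therefore did not separate allografts from the isograft, and comparisons between groups were made within classes.

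**Figure D1:**
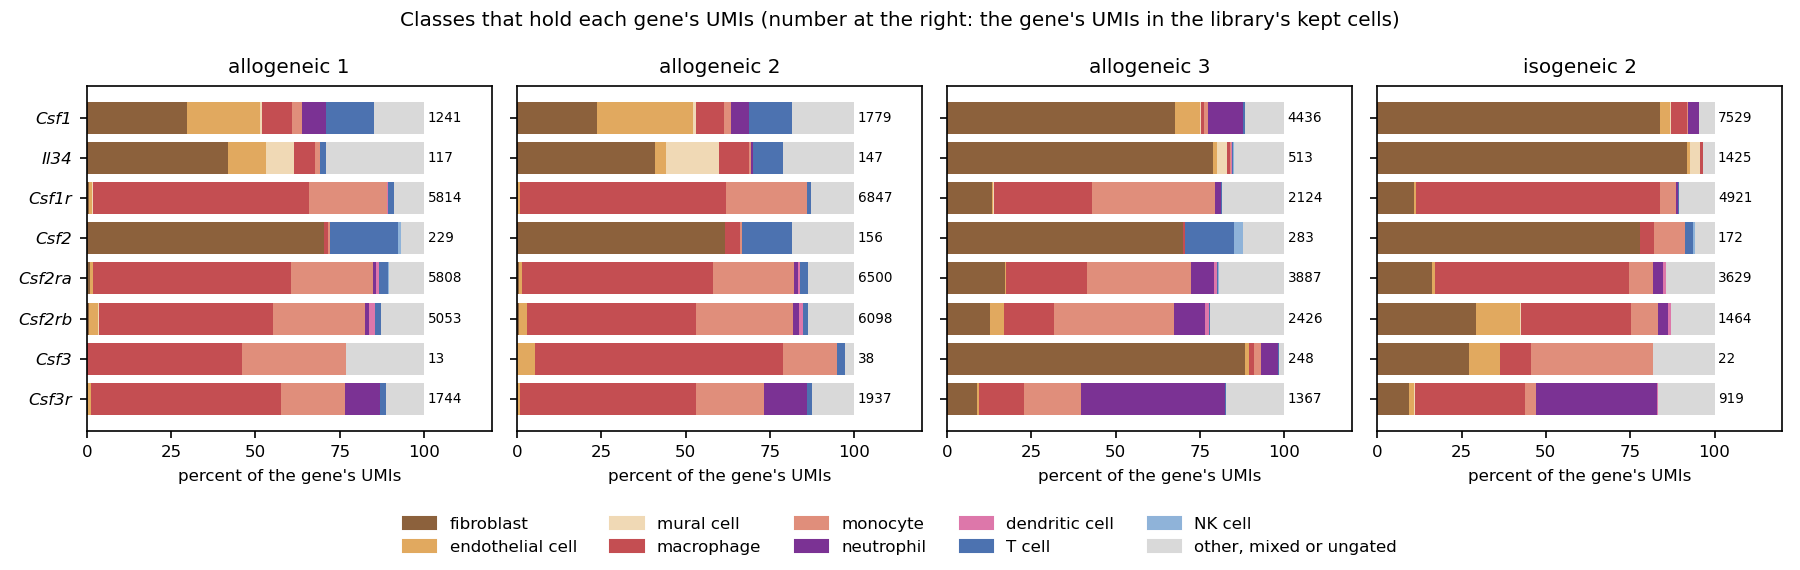
Share of each gene's UMIs (horizontal axis, percent) held by each cell class in each of the 4 libraries, with the gene's UMI number at the right of its bar. Fibroblasts hold most Csf2 UMIs in every library, and the fibroblast share of Csf1 is 23.7% to 67.5% in the allografts and 83.8% in the isograft.

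Csf1, the gene of the macrophage growth factor CSF-1, was highest in neutrophils, followed by fibroblasts and endothelial cells. Between the groups it rose in endothelial cells of allografts and fell in macrophages. In neutrophils Csf1 stood at 653, 443, 554 and 598 CPM (89, 97, 451 and 225 UMIs), so the isograft lay inside the allogeneic range. The allogeneic mean was 550 ± 105 CPM (SD, n = 3), and the log2 change of 0.07 (SE 0.48) did not pass the test (adjusted p = 0.969). After each cell was thinned to 2000 UMIs, 48.6% (33.4 to 64.1), 30.4% (19.9 to 43.3), 41.6% (35.4 to 48.1) and 37.2% (24.4 to 52.1) of neutrophils had a Csf1 UMI. Unthinned shares were 47.3%, 38.8%, 44.7% and 42.1%, while no thinned dendritic cell of any library had one (0 of 20, 21, 24 and 30 cells, upper Wilson bounds 11.4% to 16.1%). Thinning left out 18, 42, 107 and 192 shallower neutrophils.

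In fibroblasts, the matrix-forming stromal cells, Csf1 stood at 216, 219, 130 and 109 CPM. All 3 allografts lay above the isograft, with a mean of 188 ± 50.3 CPM (SD, n = 3). The log2 change was 0.70 (SE 0.35; adjusted p = 0.418), which did not pass. It passed without allogeneic replicate 3 (adjusted p = 0.0224). Every one of the 8 genes could be tested in fibroblasts and none passed, where 3.45% of all genes did.

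Endothelial cells line the vessels of the graft and are exposed to circulating monocytes. Their Csf1 level was 97.6, 115, 141 and 42.6 CPM (268, 507, 326 and 223 UMIs). All 3 allogeneic values lay above the isogeneic one, at a mean of 118 ± 21.9 CPM (SD, n = 3). The log2 change was 1.52 (SE 0.28), a fitted 2.87-fold rise, with an adjusted p of 0.0470. It was the only one of 6 genes tested that passed in this class, where 3.55% of all genes did. The call was lost without allogeneic replicate 1 (adjusted p = 0.108), without replicate 2 (0.177) or with likely doublets kept (0.0519), over alternatives from 1.0e-07 to 0.177, and the log2 change stayed between 1.41 and 1.64. The share of endothelial cells with a Csf1 UMI after thinning was 16.8% (12.6 to 22.0), 18.8% (15.9 to 22.2) and 22.8% (18.6 to 27.6) in the allografts and 9.95% (7.98 to 12.3) in the isograft. Unthinned shares were 47.5%, 41.8%, 32.2% and 16.3%. Summed fibroblast markers in endothelial cells stood at 77.2, 95.6, 553 and 464 CPM, and summed macrophage markers at 404, 426, 72.7 and 122 CPM. Summed T cell markers there were 82.7, 94.0, 26.0 and 9.16 CPM and summed monocyte markers 149, 107, 198 and 37.6 CPM, so both lists, like Csf1, were higher in each allograft than in the isograft. Summed neutrophil markers were 64.5, 72.7, 226 and 79.8 CPM. The part of these other cell types' markers in the rise was not tested.

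Macrophages, the main receivers of CSF-1, had little Csf1 of their own, at 6.29, 7.36, 9.79 and 24.6 CPM (111, 150, 43 and 359 UMIs). All 3 allogeneic values lay below the isogeneic one, with a mean of 7.81 ± 1.79 CPM (SD, n = 3). The log2 change was -1.68 (SE 0.28), a fitted 3.20-fold fall, with an adjusted p of 0.0484. Csf1 was the only one of 7 genes tested that passed in macrophages, where 4.34% of all genes did. The call was lost under a stricter gate (adjusted p = 0.0533), with likely doublets kept (0.0867), and without allogeneic replicate 1 (0.176) or 2 (0.165), over alternatives from 1.2e-05 to 0.176 with log2 changes between -1.82 and -1.51. After thinning, 1.82% (1.24 to 2.65), 0.951% (0.610 to 1.48), 1.58% (0.767 to 3.22) and 4.52% (3.73 to 5.47) of macrophages had a Csf1 UMI, against unthinned shares of 5.23%, 4.27%, 5.54% and 9.61%. T cells of the allografts had 2.45%, 3.06% and 1.79% after thinning. The allogeneic macrophage shares were below these in each library, and no allogeneic dendritic cell had a Csf1 UMI among 20, 21 and 24 thinned cells. Summed fibroblast markers in macrophages stood at 33.2, 123, 429 and 491 CPM. They were lower in each allograft than in the isograft, as Csf1 was, and their part in the difference was not tested. Dividing macrophages (with Mki67 or Top2a) had 4.69, 10.7, 7.01 and 29.7 CPM of Csf1 and non-dividing ones 7.58, 5.54, 10.8 and 22.3 CPM, and the isograft was the highest in both.

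In monocytes, which give rise to graft macrophages, Csf1 stood at 6.30, 5.26, 12.7 and 29.4 CPM. The allografts again lay below the isograft, but the log2 change of -2.01 (SE 0.55) did not pass (adjusted p = 0.149). Summed fibroblast markers in monocytes were 18.0, 35.2, 226 and 394 CPM, in the same order as Csf1 apart from replicates 1 and 2, and their part in the difference was not tested. T cells had Csf1 at 14.2, 16.4 and 7.77 CPM in the allografts and 1 UMI (16.6 CPM) in the isograft. CD8 T cells stood at 11.7, 13.2 and 3.53 CPM and CD4 T cells without Foxp3 at 18.8, 24.5 and 11.9 CPM, so the CD4 cells were higher in each allograft, from 8 UMIs against 5 in replicate 3. The mural cells around vessels had 62.7 and 131 CPM in allogeneic replicates 2 and 3 and 29.5 CPM in the isograft, with no test because replicate 1 held 16 such cells.

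**Figure D2:**
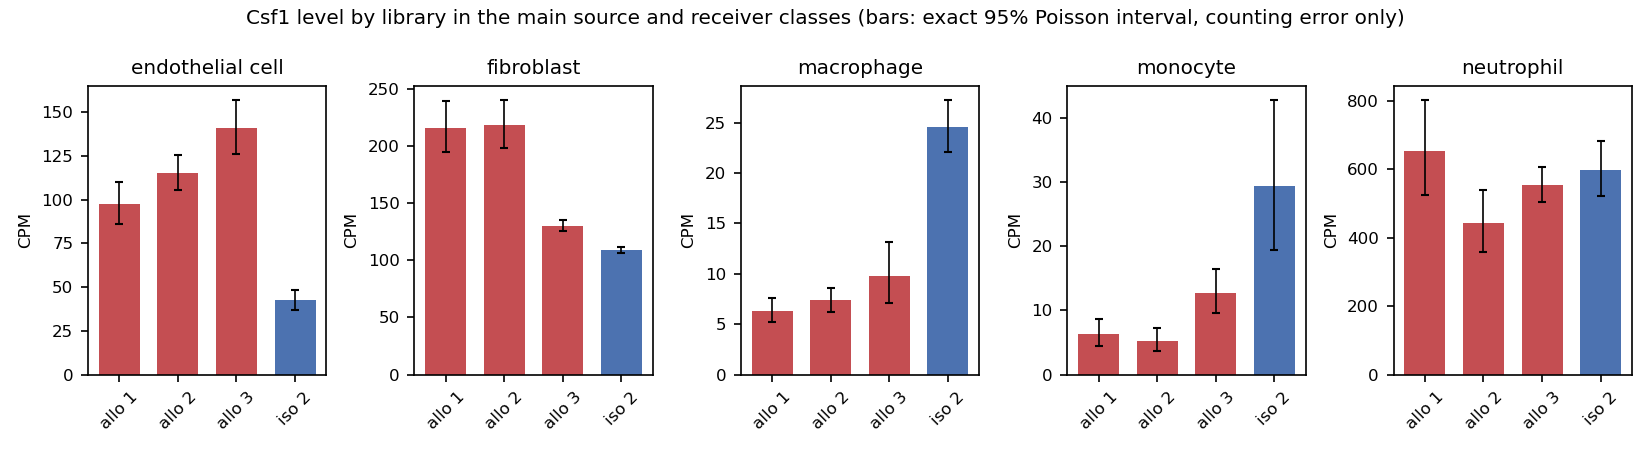
Csf1 level (vertical axis, CPM on a scale that starts at 0 and differs between panels) in each library for 5 classes, with exact 95% Poisson intervals that cover counting error only. The 3 allogeneic endothelial values lie between 97.6 and 141 CPM above the isogeneic 42.6, and the 3 allogeneic macrophage values lie between 6.29 and 9.79 below the isogeneic 24.6.

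The change of Csf1 therefore had opposite signs in endothelial cells and macrophages. The difference of the allogeneic change between the 7 classes was tested directly, with library as a block, and Csf1 was the 1 of the 8 genes that passed (edgeR quasi-likelihood F-test, adjusted p = 0.00813), where 5.57% of all genes did. Without allogeneic replicate 1 the adjusted p was 0.0990 and without replicate 2 it was 0.103, and the alternatives ran from 8.3e-12 to 0.103. For the other genes the adjusted p of this test was 0.0601 for Csf2, 0.0835 for Csf3 and between 0.267 and 0.991 for the rest.

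Il34 encodes the second ligand of CSF1R, and its UMIs were found in stromal cells. Mural cells had 111 and 110 CPM (23 and 15 UMIs) in allogeneic replicates 2 and 3, against 39.6 CPM (43 UMIs) in the isograft. With 10 UMIs in the 16 mural cells of replicate 1 (73.3 CPM), all allogeneic values lay above the isogeneic one, and no test was made. Fibroblasts had 28.6, 31.1, 17.6 and 22.6 CPM, a range that includes the isograft. The log2 change was 0.06 (SE 0.36; adjusted p = 0.972) around an allogeneic mean of 25.7 ± 7.20 CPM (SD, n = 3). Endothelial cells followed at 4.73, 1.14, 3.03 and 2.48 CPM, below the fibroblast range, and macrophages, monocytes and T cells were all under 1.1 CPM.

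Csf1r, the receptor for both ligands, was found in mononuclear phagocytes and did not pass in any of the 7 classes. Monocytes had 236, 239, 178 and 261 CPM and macrophages 211, 205, 141 and 244 CPM. In both classes the 3 allografts lay below the isograft, replicate 3 lowest. The log2 changes were -0.38 (SE 0.25; adjusted p = 0.472) in monocytes and -0.39 (SE 0.27; adjusted p = 0.423) in macrophages. The ranges of monocytes and macrophages overlapped within the allografts, macrophages lay above neutrophils (73.3, 32.0 and 50.4 CPM), and neutrophils lay above dendritic cells (25.2, 14.0 and 8.85 CPM). After thinning, 32.9% (30.5 to 35.4), 34.2% (32.2 to 36.3), 24.4% (20.6 to 28.6) and 38.0% (35.9 to 40.0) of macrophages had a Csf1r UMI, against 1.64%, 1.37%, 1.22% and 1.09% of endothelial cells, which should lack it. Unthinned shares in macrophages were 67.5%, 65.4%, 61.0% and 67.3%. The macrophages' median depth was 9402, 7836, 8142 and 4841 UMIs.

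Csf2, the GM-CSF gene, was carried by few cells and at high counts in some of them. In fibroblasts it stood at 94.0, 49.7, 8.60 and 2.31 CPM (161, 96, 198 and 134 UMIs). All 3 allografts lay above the isograft, but they spread over a wide range, with a mean of 50.8 ± 42.7 CPM (SD, n = 3). The log2 change of 4.28 (SE 1.21) did not pass (adjusted p = 0.119). It passed without allogeneic replicate 1 (adjusted p = 0.0066), without replicate 3 (0.0002) and with no filter on low counts, over alternatives from 1.6e-20 to 0.123. These UMIs lay in 6 of 71, 14 of 143, 46 of 2115 and 41 of 4968 fibroblasts, and single cells held up to 58, 27, 48 and 11 of them. As shares the cells with a Csf2 UMI were 8.45% (3.93 to 17.2), 9.79% (5.92 to 15.8), 2.17% (1.64 to 2.89) and 0.825% (0.609 to 1.12), and 4.76%, 6.25%, 0.865% and 0.379% after thinning. The median depth of fibroblasts was 24475, 12979, 7497 and 9289 UMIs, and no endothelial cell, dendritic cell, neutrophil or mural cell of any library had a Csf2 UMI. In endothelial cells a count of 0 allows 1.1, 0.68, 1.3 and 0.57 CPM, the level of 3 UMIs. The fibroblasts with a Csf2 UMI had a median of 7, 6, 7 and 7 of the 8 fibroblast markers, and the other fibroblasts 7 in each library. Their median depth was 40124.5, 22951.5, 11681 and 12382 UMIs, against 22834, 12830, 7440 and 9260 UMIs in the other fibroblasts. The part of depth in their detection was not tested. The Col1a1 level of those with a Csf2 UMI was 1686, 1704, 3892 and 5331 CPM, against 1935, 2030, 5682 and 6028 CPM in the other fibroblasts.

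T cells are a classical source of GM-CSF. Their Csf2 level was 3.73, 1.68 and 12.7 CPM in the allografts (46, 23 and 41 UMIs in 14 of 922, 8 of 1492 and 10 of 366 cells). The isograft had 4 UMIs in 2 of 32 T cells, which is 66.4 CPM and above each allograft. The log2 change was -3.29 (SE 1.99). None of the 6 genes tested in T cells passed, and 0% of the 13058 genes tested did. At an unadjusted p under 0.05, 1072 genes were higher and 370 lower in allogeneic T cells, and DESeq2 called 79 higher and 23 lower. The median log2 change of all genes tested in T cells was 1.02, and the 32 isogeneic T cells held 60231 UMIs. In allogeneic replicate 3, T cells with gamma-delta receptor genes held 10 Csf2 UMIs in 6 of 22 cells (57.1 CPM). The 9 and 24 such cells of replicates 1 and 2 held none, where 3 UMIs would have stood at 67.5 and 26.4 CPM. In the isograft 1 of 6 such cells held 2 UMIs (163 CPM), where 3 UMIs would have stood at 244 CPM. NK cells of the allografts had 2, 0 and 7 Csf2 UMIs.

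In monocytes Csf2 fell in the test, with a log2 change of -7.03 (SE 0.91; adjusted p = 0.0294), but the call rested on 1 cell. The level was 0.175, 0.146, 0 and 17.4 CPM, from 1, 1, 0 and 16 UMIs, and all 16 isogeneic UMIs lay in 1 of 200 monocytes. That cell had 10088 UMIs, 4 of the 6 monocyte markers, 2 T cell markers and none of the mast cell markers. In monocytes Csf2 met the low-count filter through the isograft alone, so the direction was fixed by the filter. The test is therefore no support for a fall. Csf2 was the only one of 7 genes tested that passed in monocytes, where 1.96% of all genes did. The call was lost with likely doublets kept (adjusted p = 0.0528) and without allogeneic replicate 2 (0.0571), and DESeq2 returned no adjusted p for it. Over the alternatives with a value the adjusted p ran from 4.1e-06 to 0.0571.

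**Figure D3:**
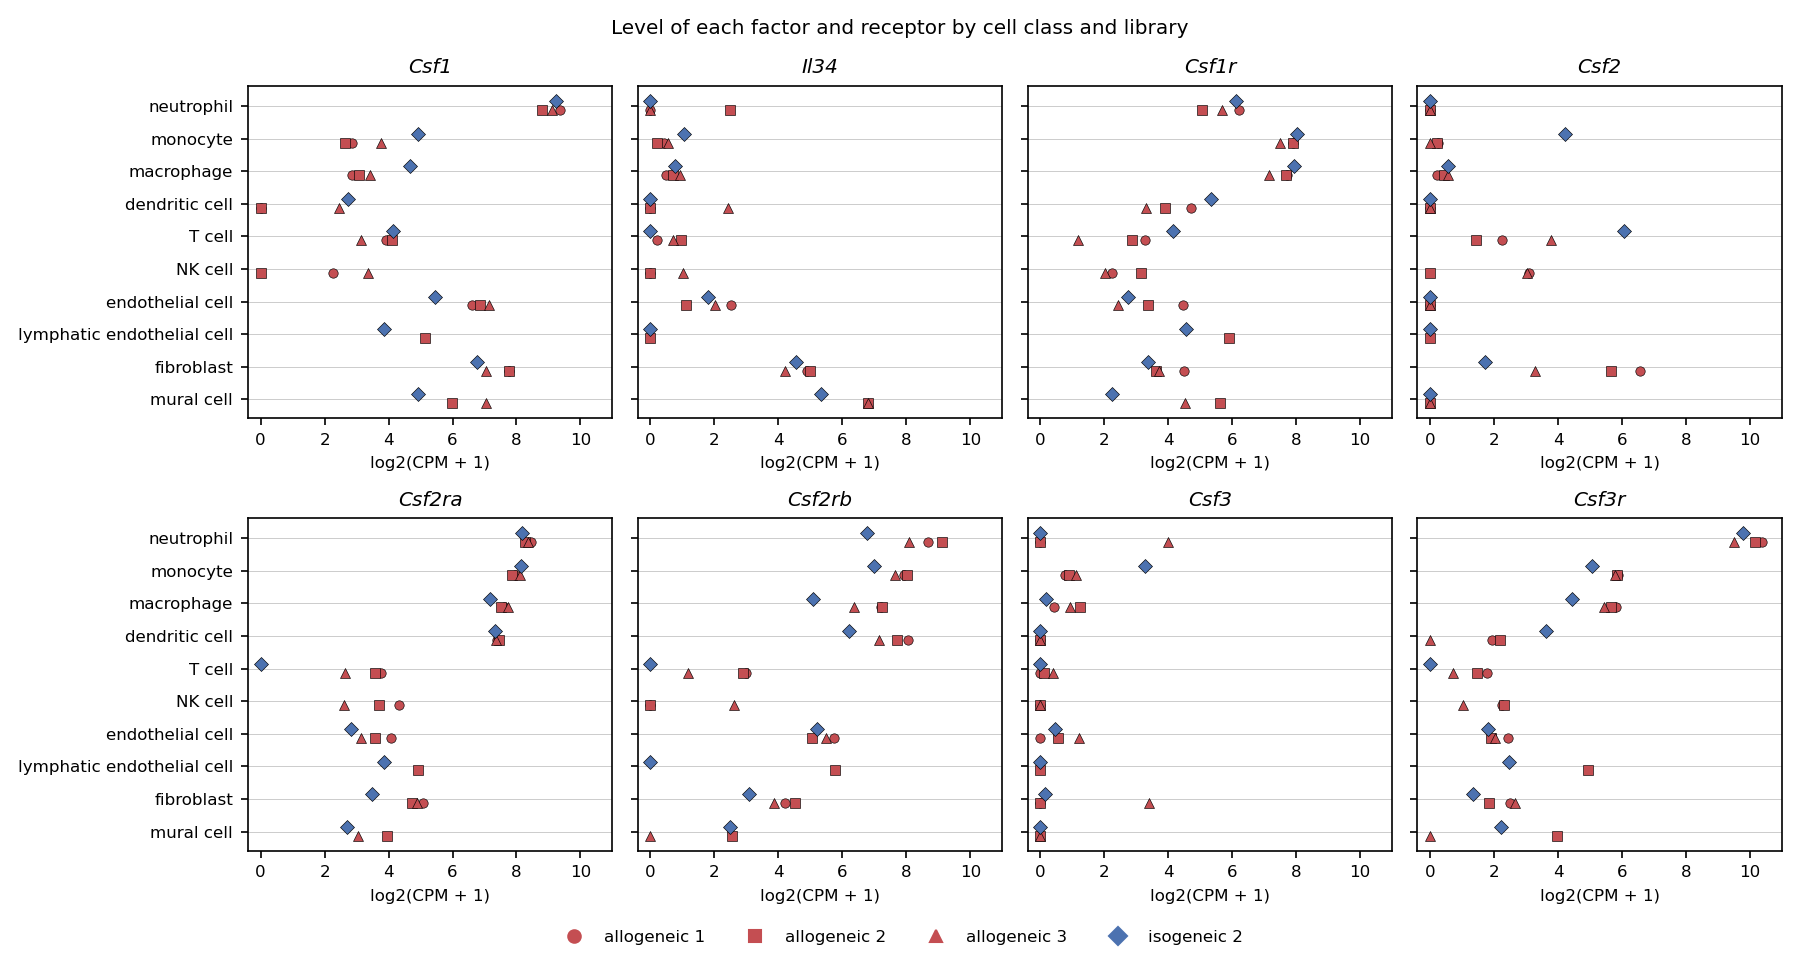
Level of each gene as log2(CPM + 1) (horizontal axis) in 10 cell classes, with 1 point per library of at least 20 cells; red symbols are the 3 allogeneic libraries and blue diamonds the isogeneic one. Receptor genes are highest in neutrophils and mononuclear phagocytes, and Il34 in mural cells and fibroblasts.

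Csf2ra, the ligand-binding alpha chain for GM-CSF, was highest in neutrophils, then monocytes, macrophages and dendritic cells, and the allogeneic ranges of these 4 classes did not overlap. Neutrophils had 352, 306 and 326 CPM in the allografts, monocytes 248, 229 and 277, macrophages 193, 180 and 211, and dendritic cells 165, 175 and 164. Isogeneic values were 287, 282, 143 and 158 CPM in the same order of classes. In macrophages all 3 allografts lay above the isograft, with a log2 change of 0.45 (SE 0.19; adjusted p = 0.221). In fibroblasts the level was 32.7, 25.4, 28.8 and 10.1 CPM, and the log2 change of 1.44 (SE 0.33) had an adjusted p of 0.0607. Summed macrophage markers in fibroblasts stood at 408, 338, 448 and 117 CPM and summed monocyte markers at 739, 614, 1148 and 389 CPM, and their part in this difference was not tested.

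Csf2rb, the shared signalling chain, was higher in allografts than in the isograft in all 4 myeloid classes, and in none of them did it pass. Neutrophils had 411, 553, 268 and 109 CPM (56, 121, 218 and 41 UMIs), with a log2 change of 2.07 (SE 0.57; adjusted p = 0.0559). None of the 5 genes tested in neutrophils passed, where 4.52% of all genes did. Monocytes had 244, 256, 200 and 127 CPM, with a log2 change of 0.75 (SE 0.26; adjusted p = 0.208). Dendritic cells, which respond to GM-CSF, had 266, 210, 142 and 73.5 CPM and a log2 change of 1.29 (SE 0.51; adjusted p = 0.274). None of the 3 genes tested in dendritic cells passed, where 1.96% of all genes did. Macrophages had 147, 149, 80.6 and 32.9 CPM (2602, 3044, 354 and 480 UMIs), with a mean of 126 ± 39.2 CPM (SD, n = 3). The log2 change in macrophages was 1.94 (SE 0.43; adjusted p = 0.0771), over alternatives from 7.6e-07 to 0.187, and allogeneic replicate 3 lay between the other allografts and the isograft. Summed monocyte markers in macrophages were 868, 807, 804 and 375 CPM, also higher in each allograft, and their part in this difference was not tested. After thinning, 24.4% (22.2 to 26.7), 24.5% (22.7 to 26.5), 16.0% (12.9 to 19.7) and 6.71% (5.74 to 7.84) of macrophages had a Csf2rb UMI, and the unthinned shares were 56.0%, 55.8%, 42.4% and 16.0%. In T cells of the allografts, which should lack it, the thinned shares were 0.935%, 1.34% and 0% (upper bound 1.13%). Endothelial cells had 52.4, 32.5, 43.7 and 35.9 CPM, a range that includes the isograft.

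The neighbouring gene Csf2rb2, whose beta chain serves the interleukin-3 receptor, was also higher in the allografts. Macrophages had 62.7, 63.3, 38.5 and 12.7 CPM, and the log2 change of 2.13 (SE 0.36) passed with an adjusted p of 0.0495. The call was lost with likely doublets kept (adjusted p = 0.0521), without allogeneic replicate 1 (0.123) and without replicate 2 (0.108). The monocyte markers given above moved with it, and their part was not tested. Monocytes had 94.4, 101, 68.0 and 37.0 CPM, and the log2 change of 1.13 (SE 0.35) did not pass (adjusted p = 0.177). Reads may be split between these neighbours, as stated above.

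Csf3, the G-CSF gene, had 248 UMIs in the kept cells of allogeneic replicate 3, against 13, 38 and 22 in allogeneic replicates 1 and 2 and the isograft. Fibroblasts had 0, 0, 9.51 and 0.104 CPM, from 0, 0, 219 and 6 UMIs. The 219 UMIs lay in 38 of 2115 fibroblasts and up to 64 in 1 cell. In the smaller fibroblast profiles of replicates 1 and 2 a count of 0 allows up to 1.75 and 1.55 CPM, the level of 3 UMIs. The log2 change was 5.27 (SE 1.98) and did not pass (adjusted p = 0.248). Macrophages had 6, 28, 4 and 2 Csf3 UMIs (0.340, 1.37, 0.911 and 0.137 CPM), and monocytes 4, 6, 5 and 8. In monocytes this was 0.700 to 1.15 CPM in the allografts and 8.71 CPM in the isograft, from 5 of 200 cells. The log2 change there was -3.36 (SE 0.77) and did not pass. Csf3 too met the low-count filter in monocytes through the isograft alone. In neutrophils Csf3 was detected in allogeneic replicate 3, with 12 UMIs in 3 cells and 9 of them in 1 cell.

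Csf3r, the G-CSF receptor, was a neutrophil gene in every library. Neutrophils had 1313, 1138, 718 and 880 CPM (179, 249, 584 and 331 UMIs), and the isograft lay inside the allogeneic range. The log2 change of 0.42 (SE 0.48) did not pass (adjusted p = 0.750). After thinning, 75.7% (59.9 to 86.6), 78.6% (66.2 to 87.3), 67.3% (60.9 to 73.0) and 72.1% (57.3 to 83.3) of neutrophils had a Csf3r UMI, against 85.5%, 78.6%, 73.3% and 70.2% unthinned and 0.350%, 0.448% and 0% (upper bound 1.13%) of thinned allogeneic T cells. Monocytes, at 58.1, 56.6, 53.5 and 32.7 CPM, lay far lower, with a log2 change of 0.66 (SE 0.22; adjusted p = 0.210). Macrophages had 55.5, 49.6, 41.9 and 20.4 CPM, with all allografts above the isograft. Their log2 change of 1.27 (SE 0.22) had an adjusted p of 0.0513, over alternatives from 2.5e-05 to 0.185. Summed neutrophil markers in macrophages stood at 120, 124, 217 and 68.7 CPM. Like Csf3r they were higher in each allograft than in the isograft, in another order among the allografts. Their part in the difference was not tested.

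**Figure D4:**
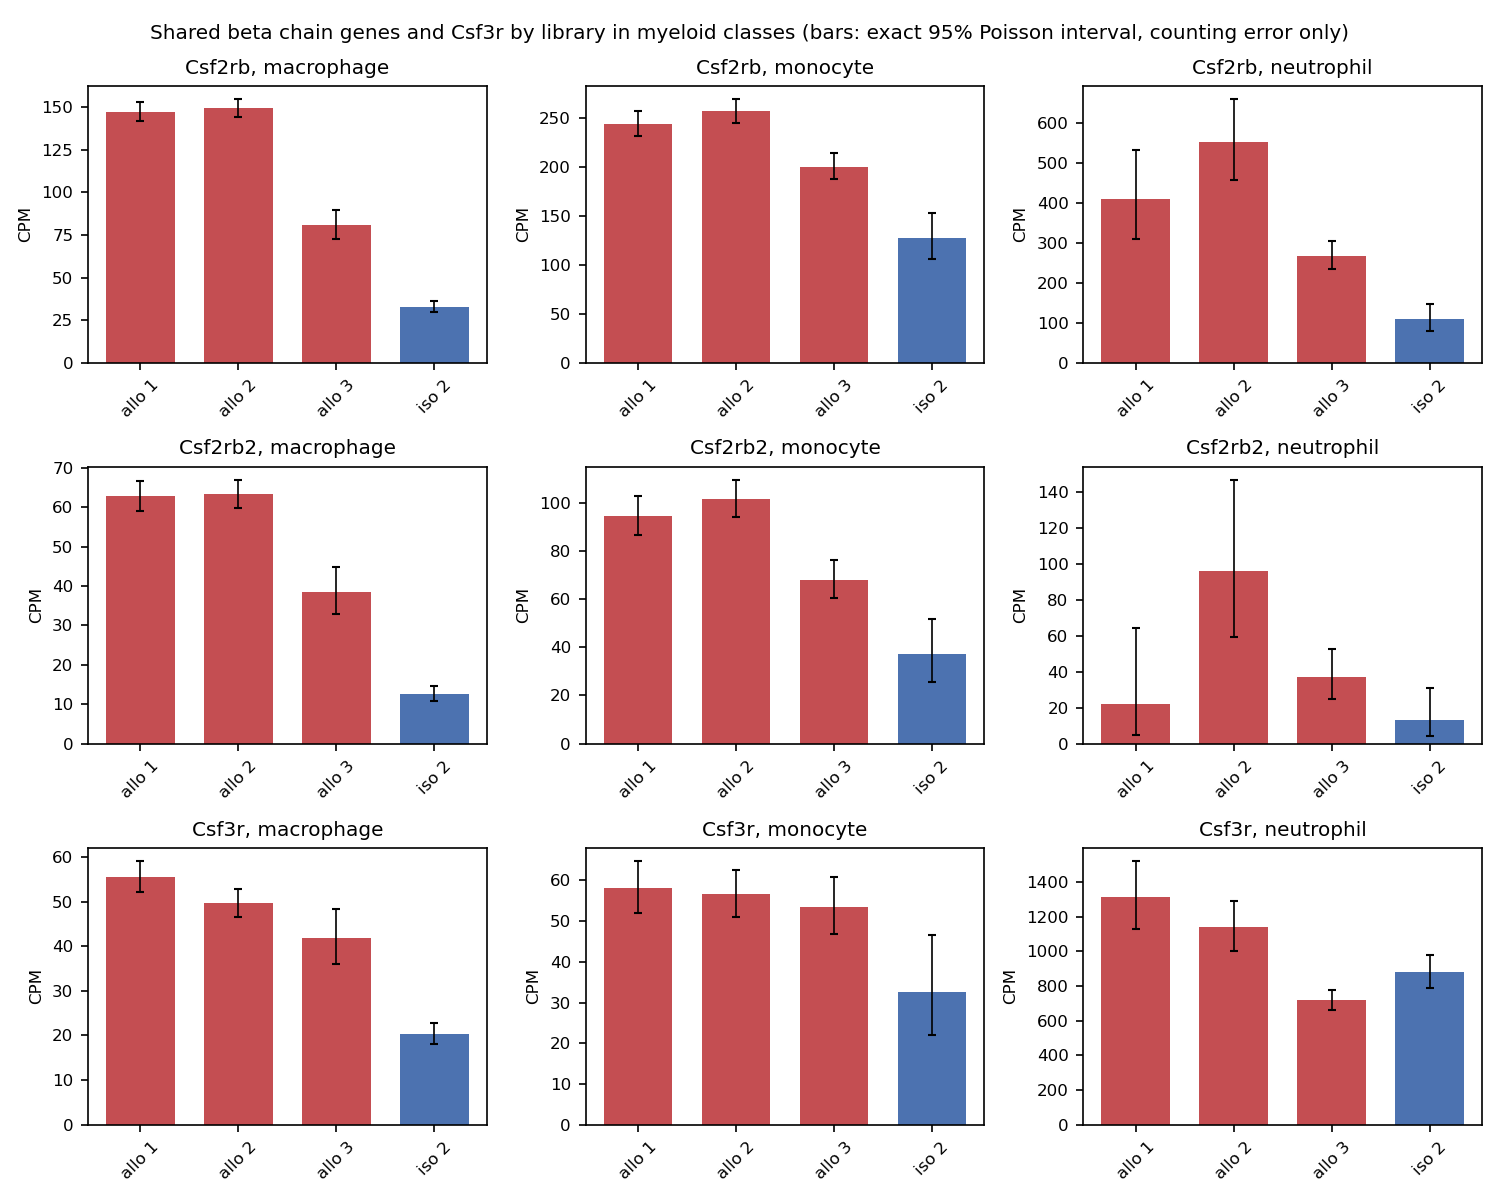
Csf2rb, Csf2rb2 and Csf3r levels (vertical axis, CPM from 0, scales differ between panels) by library in macrophages, monocytes and neutrophils, with exact 95% Poisson intervals that cover counting error only. Csf2rb in macrophages is 80.6 to 149 CPM in the allografts and 32.9 CPM in the isograft, and Csf3r in neutrophils is 718 to 1313 CPM in the allografts and 880 CPM in the isograft.

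Over the 7 classes 42 gene and class pairs could be tested, after the filter on low counts. The isogeneic value lay below all 3 allogeneic values in 22 pairs, above them in 11 and among them in 9. The same count was not made over all genes, so these numbers are not a result about the 8 genes. For Csf2ra, Csf2rb and Csf3r in T cells the isograft lay below with 0 UMIs in 32 cells. In monocytes Csf2 and Csf3 met the filter through the isograft alone, so only a fall could be found for them. The test called 1 rise and 2 falls: Csf1 in endothelial cells, Csf1 in macrophages and Csf2 in monocytes. Without allogeneic replicate 3 it called 14 rises and 5 falls, without replicate 2 none, and with likely doublets kept none. The calls among all genes moved as well. Without replicate 3 they were more in each of the 7 classes, and without replicate 2 they were fewer in all but neutrophils and T cells. With likely doublets kept they were more in some classes and fewer in others. Differences between classes were tested within the allografts, with library as a block. All 7 genes that passed the filter, every one but Csf3, differed between the 8 classes with at least 20 cells in each allograft, where 91.6% of all genes did.

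**Figure D5:**
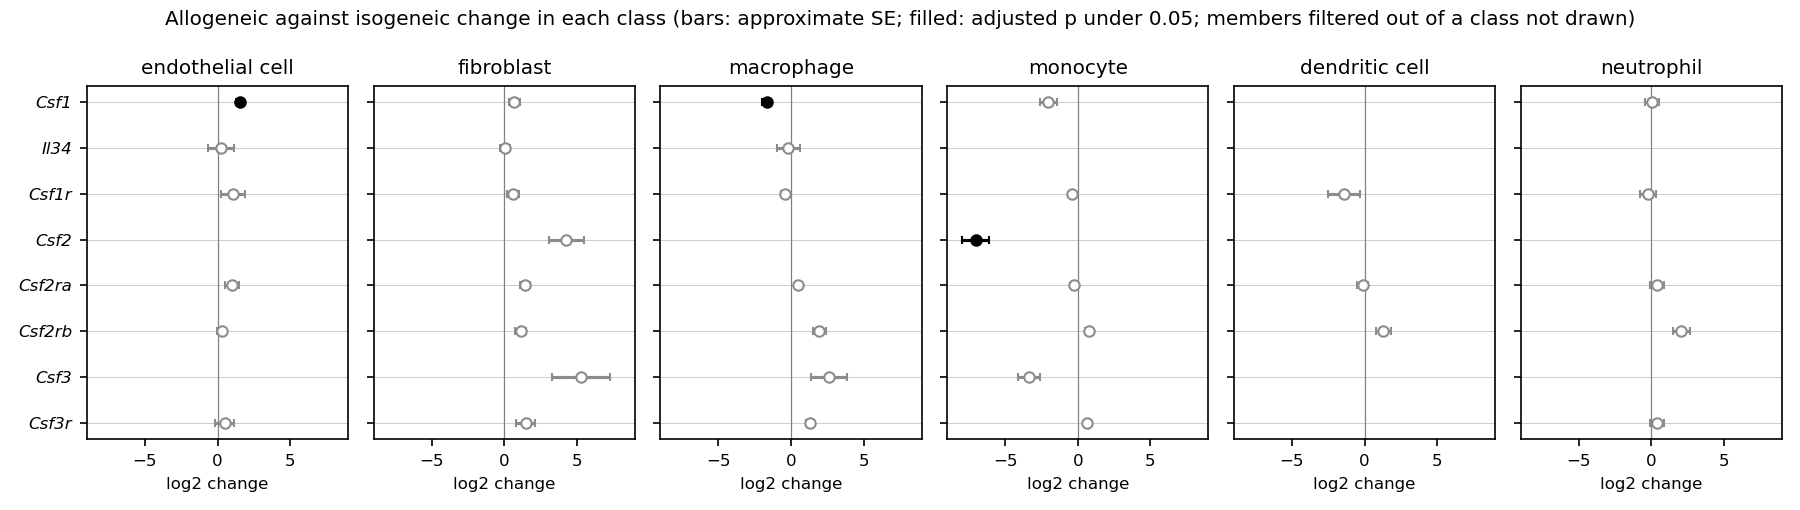
Log2 change of each gene, allogeneic against isogeneic (horizontal axis), in 6 classes, with approximate standard errors; filled points passed an adjusted p of 0.05. The filled points are Csf1 in endothelial cells at 1.52, Csf1 in macrophages at -1.68 and Csf2 in monocytes at -7.03. The Csf2 point rests on 1 isogeneic cell.

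Genes of the same pathways were counted from 8 lists of 59 genes, beside a median log2 change of all genes between -0.01 and 0.06 in the 6 classes other than T cells. The counts stand beside the shares of all genes that passed, which were 3.45% in fibroblasts, 3.55% in endothelial cells, 4.34% in macrophages, 4.52% in neutrophils and 1.96% in both monocytes and dendritic cells. Among 10 feedback regulators of cytokine receptors, Socs1, which blocks JAK kinases, rose in 5 classes. Its level in neutrophils was 704, 978, 556 and 10.6 CPM, a log2 change of 6.26 (SE 0.78; adjusted p = 0.0006). The log2 change was 4.52 in endothelial cells, 4.28 in macrophages, 3.65 in fibroblasts and 2.61 in monocytes. In fibroblasts 4 of 10 rose (Cish, Inpp5d, Ptpn6 and Socs1), at a list median of 1.55, and Ptpn6, a phosphatase of blood cells, stood at 36.8, 22.8, 25.1 and 2.88 CPM. In the other 4 classes with a rise no further member of the list passed.

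Among 13 genes of downstream signalling, the list median in macrophages was 0.78. Jak2, the kinase bound to the beta chain, rose in macrophages, at 76.6, 71.1, 69.7 and 16.9 CPM (log2 change 2.11, SE 0.18; adjusted p = 0.0150), and the allografts lay close together above the isograft. Jak2 also rose in endothelial cells, at 212, 234, 266 and 99.8 CPM, the only one of the 13 there. In fibroblasts Tyrobp, an adaptor of myeloid receptors, rose and stood at 196, 153, 235 and 40.5 CPM. None passed in monocytes, dendritic cells or neutrophils.

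Among 10 myeloid transcription factors, Irf8, which directs monocyte and dendritic cell fate, rose in 5 classes. It stood at 492, 440, 351 and 117 CPM in macrophages and 1331, 1421, 1628 and 328 CPM in dendritic cells. Its log2 change was 1.88 in macrophages, 1.94 in dendritic cells, 1.67 in monocytes, 3.55 in endothelial cells and 3.86 in fibroblasts. Without allogeneic replicate 2 the Irf8 rise in dendritic cells did not pass. Spi1, the gene of PU.1, rose in fibroblasts from 7.35 CPM in the isograft to 52.0, 35.7 and 42.7 CPM in the allografts. In fibroblasts these rises of Spi1, Tyrobp, Ptpn6 and Inpp5d, genes known from blood cells, stood beside the higher summed macrophage and monocyte markers given above, whose part was not tested. With likely doublets kept, the log2 change of Spi1 was 1.33 (adjusted p = 0.0816) and that of Tyrobp 0.95 (adjusted p = 0.233), and neither passed. In monocytes Klf4 fell by 1.87 on the log2 scale. The list median there was -0.73.

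Of 3 other proteins that bind IL-34, Trem2, a lipid receptor of macrophages, fell in macrophages and monocytes. It stood at 276, 225, 331 and 1502 CPM in macrophages (log2 change -2.43, SE 0.24; adjusted p = 0.0203) and fell by 2.24 in monocytes. Sdc1, a surface proteoglycan, fell by 2.89 in endothelial cells, from 30.0 CPM in the isograft to 2.91, 2.73 and 6.49 CPM. None of the 6 tested genes that GM-CSF is known to raise passed in macrophages (list median 1.61) or monocytes (0.75, or 0.25 with genes at 0 UMIs in a group set to their bound). Il1rn, the interleukin-1 receptor antagonist on that list, stood at 1672, 1375, 1395 and 311 CPM in neutrophils (log2 change 2.44) and rose by 3.27 in fibroblasts.

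Of the 10 inducers of the factors, at most 2 passed in any class. Il1a, an interleukin-1 gene, stood at 56.0, 60.9, 49.6 and 16.3 CPM in macrophages (log2 change 1.78) and rose by 2.36 in neutrophils, and Ifng passed in macrophages and endothelial cells. In macrophages Ifng lay under 20 CPM in the allogeneic mean and in the isograft, and the part of T cell transcripts was not tested. In endothelial cells Ifng had 13.1, 31.3, 17.7 and 0.191 CPM. Summed T cell markers in endothelial cells were 82.7, 94.0, 26.0 and 9.16 CPM, whose part was not tested. In dendritic cells, which numbered 22, 21, 28 and 32, Tnf fell by 3.60 and Il1b by 1.87. The gate pooled markers of several dendritic cell types, and the part of their mix was not tested. Without allogeneic replicate 2 neither fall passed (adjusted p = 0.522 for Tnf and 0.357 for Il1b), and that of Tnf did not pass by DESeq2 (0.342). Their levels there were 11.2, 24.5, 97.3 and 424 CPM for Tnf and 314, 284, 296 and 944 CPM for Il1b. None of the 3 genes of receptor shedding and factor processing passed in any class, and no gene of any list passed in T cells. Of the 29 gene and class pairs that met the naming rule for these lists, 17 kept their call without allogeneic replicate 1, 14 without replicate 2, 29 without replicate 3 and 21 with likely doublets kept, and all kept their direction. The rises of Socs1 in endothelial cells, fibroblasts, macrophages and neutrophils and of Irf8 in endothelial cells and fibroblasts were among 9 that kept it under every alternative run.

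The genes whose levels were most like each member's were found by Pearson's r of log2(CPM + 1) over 39 profiles of 12 classes, among 12374 genes, as a description. The profiles share libraries and differ in depth. Csf2ra was most like Spi1 (r = 0.97) and Basp1 (0.97). Csf2rb was most like Csf2rb2 and Lpcat2 (both 0.89), Csf1r like Lyz2 (0.91), itself a marker used in the gate, and Csf3r like Ccrl2 (0.92). Il34 was most like Pcdh18 and Gnao1 (both 0.94). Csf1 reached 0.80 with Igf1r and Steap4, and Csf2 reached 0.70 with Cdon.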

How the data were processed

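Transplanted mouse hearts were measured by droplet single-cell RNA sequencing (the labels' protocols name a 10x Chromium 3′ kit) in 3 allogeneic libraries and 1 isogeneic library. The authors deposited raw UMI counts per gene and barcode. Per the submitters' processing notes Cell Ranger 3.1.0 and mm10 were used, while the file headers name Cell Ranger 6.1.0; no source used here states which version made the counts.

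Cells with under 500 UMIs, under 300 genes or over 20% mitochondrial UMIs were left out, and the top-scoring 0.8% per 1000 barcodes by scrublet (scanpy 1.11.5, Python 3.11.15) were removed as likely doublets. The gate gave each cell the class with the highest mean of its 3 best marker values, each scaled to the 95th percentile. It asked for at least 3 detected markers, a score of 0.3 and 1.3 times the next lineage's score. Other cells were mixed or ungated. This scoring rule was chosen after the files were seen.

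Counts were summed per library and class of at least 20 cells and tested with edgeR 4.0.16 (R 4.3.3; TMM scaling, filterByExpr, quasi-likelihood F-test, Benjamini-Hochberg threshold 0.05). The samples enter without a covariate within a class, and with library as a block between classes. Standard errors were taken as the log2 change over the root of F and are approximate. Scripts were tested on simulated data. DESeq2 1.42.0, RLE scaling, no filter, a stricter gate, doublets kept, a 10% mitochondrial limit, joined macrophages and monocytes, and each allogeneic replicate left out were tried. Shares of cells were taken after thinning to 2000 UMIs. Intervals (95%) and the level that a count of 0 allows (3 counts) cover counting error only.

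All 8 genes were described in every class. The members and the pathway and marker lists were chosen with earlier results of these data known. From the pathway lists, genes past the threshold were named, at most 4 per list and class by size of change among those with at least 20 CPM in a group; Cish and Inpp5d in fibroblasts and Ifng in macrophages are named outside this rule, after their values were seen. Some genes that met the rule are not reported here. Likeness took the highest correlations of log2(CPM + 1) over profiles of at least 20 cells.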

Additional observations from a re-analysis of the deposited data

Results flagged for a closer look

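The allogeneic change of Csf1 differed between the 7 classes in the direct test of that difference (edgeR quasi-likelihood F-test over all class terms, adjusted p = 0.00813). Its log2 change was 1.52 in endothelial cells, where all 3 allografts lay above the isograft, and -1.68 in macrophages, where all 3 lay below it. The fitted change was -2.01 in monocytes, 0.70 in fibroblasts and 0.07 in neutrophils.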

How the results depend on the processing

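No paired analysis was possible because the groups share only 1 replicate number, and no label says that it pairs the libraries. Against 1 rise and 2 falls among the 8 genes over the 7 classes, rises numbered 2 with RLE scaling, 6 with no filter on low counts, 3 under the stricter gate, 0 with doublets kept, 2 with the 10% mitochondrial limit, 3 with macrophages and monocytes joined, 5 by DESeq2 and 0 to 14 with a library left out. Falls numbered 1 under the stricter gate, 0 with doublets kept, 0 with those classes joined, 1 by DESeq2 and 0 to 5 with a library left out. With classes joined, Csf1 in the joined class had an adjusted p of 0.0516, while Csf2rb (log2 change 2.07) and Csf3r (1.28) passed there as rises. Calls of a change that differs between classes (1) numbered 4 with no filter and 0 to 6 with a library left out, and 7 or 8 genes differed between classes under every alternative run. The cause of these shifts was not tested. Signs turned for uncalled log2 changes. With a library left out, Csf1 ran from -0.27 to 0.17 in T cells and -0.071 to 0.26 in neutrophils, Csf1r from -0.41 to 0.046 in neutrophils, and Il34 from -0.29 to 0.69 in endothelial cells, -0.047 to 0.30 in fibroblasts and -0.36 to 0.13 in macrophages. With doublets kept, Csf1 was 0.11 in T cells and -0.14 in neutrophils, and Csf1r -0.0016 in fibroblasts. Csf1r in T cells was 8.33 under the stricter gate, and Csf3r in T cells -0.63 by DESeq2. Among all genes, calls numbered 0 in T cells and 102 by DESeq2; with a library left out they ran from 0 to 633 in T cells, 0 to 516 in dendritic cells (100), 147 to 4719 in endothelial cells (453), 412 to 1894 in fibroblasts (552), 92 to 7338 in macrophages (677), 118 to 2476 in monocytes (243) and 40 to 538 in neutrophils (190). Over the other settings they ran from 55 to 285 in dendritic cells, 453 to 1023 in endothelial cells, 439 to 1792 in fibroblasts, 685 to 1691 in macrophages and 156 to 650 in monocytes. The stricter gate left under 20 dendritic cells in a library and gave no value for them. Of the shares of cells recomputed at 1000 UMIs or without thinning, 54 moved outside their 95% interval and 18 did not.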
